A study of Homo sapiens with 6 samples.

Results

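HERVK11 and MER11 are the internal regions and long terminal repeats (LTRs) of a pair of related human endogenous retrovirus groups, and 6 entries of the repeat count table carry their names: HERVK11-int, HERVK11D-int, MER11A, MER11B, MER11C and MER11D. They were taken by name from 15641 entries. They were selected on their names and on their naive and primed counts in these same libraries, so every naive to primed difference given for them is a description and carries no p-value. The RNA came from the chromatin fraction of H9 cells, a widely used line of human embryonic stem cells, with 3 libraries labelled naïve (written naive, N1 to N3) and 3 labelled primed (P1 to P3). The naive state was maintained in RSeT medium, and the labels give the same RSeT growth text for the primed libraries, so the primed state rests on the treatment label alone. All 6 libraries share the H9 line, the chromatin fractionation and a directional library kit, and nothing in the labels says that libraries of a group came from separate cultures. The table holds repeat names and no genes, so pluripotency markers could not be read from it.

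An endogenous retrovirus is the remnant of an ancient infection of the germ line, with an internal region that once encoded viral proteins between a pair of LTRs. The LTRs hold the promoter and enhancer sequences of the virus, and many copies in the genome are solitary LTRs whose internal region was lost by recombination. HERVK11-int belongs to the HML-8 group of the HERV-K class and its LTRs are MER11A, MER11B and MER11C, whereas HERVK11D-int belongs to HML-7, with MER11D as its LTR. ZNF808, a KRAB zinc finger protein, is known to bind MER11 elements and to repress them during human pancreas development. Each entry sums all genomic copies of its repeat, so a value has no single position. Entries differ in copy number and length, so levels are compared between libraries and not between entries.

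Total counts were between 9748202 and 17791046 in naive libraries, against 7192242, 118793 and 8106871 in primed P1, P2 and P3. The 6 entries together took 26820, 31279 and 31971 counts in naive N1, N2 and N3, against 27685, 336 and 26375 in primed P1, P2 and P3. Primed P2 was by far the shallowest library, in which 3 counts equal 25.3 CPM (counts scaled to a common library total). Alpha satellite, the repeat of human centromeres, held 25.3% to 42.9% of the counts in naive libraries and 0.221% to 0.625% in primed libraries. That difference lowers the share of every other entry in naive libraries when counts are scaled by the library total. Levels below are therefore CPM after TMM scaling, which sets library sizes from the bulk of the entries, and shares within the family, which need no scaling, follow.

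The 6 entries did not move together. HERVK11-int, MER11A and MER11C were higher in naive libraries, MER11B was lower, and HERVK11D-int and MER11D were nearly level, with log2 changes (naive minus primed) from -1.88 to 1.09. All 6 had enough counts to be tested in the fit of the whole table. Of these, 3 rose, 1 fell and 2 did not pass the threshold (quasi-likelihood test in edgeR, adjusted p under 0.05 by Benjamini-Hochberg over all 3219 tested entries). Over all tested entries 12.7% were called, 4.94% higher and 7.77% lower in naive libraries, and over the 1265 named repeats among them 11.5% were called, 10.4% higher and 1.19% lower. Nothing is read from the counts of members, since the entries were chosen with this contrast known. The median log2 change was 0.26 over the 6 entries, against 0.21 over the named repeats and -0.0046 over all tested entries. Without naive and primed libraries overlapping, 3 of the 6 entries were higher in naive libraries and 0 lower, while 36.0% and 3.24% of named repeats, and 19.4% (624) and 11% (353) of all 3219 tested entries, did so. The calls of these entries depended on primed P1: without it, 0 of the 6 entries were called in either direction. Few calls remained over the whole table either, with 8 entries higher and 7 lower of 3472 tested. Without the shallow primed P2 the counts of the 6 entries stayed at 3 and 1, beside 187 higher and 357 lower of 3724 tested. In such bulk libraries, fewer cells with an RNA and less of it per cell cannot be told apart.

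**Figure D1:**
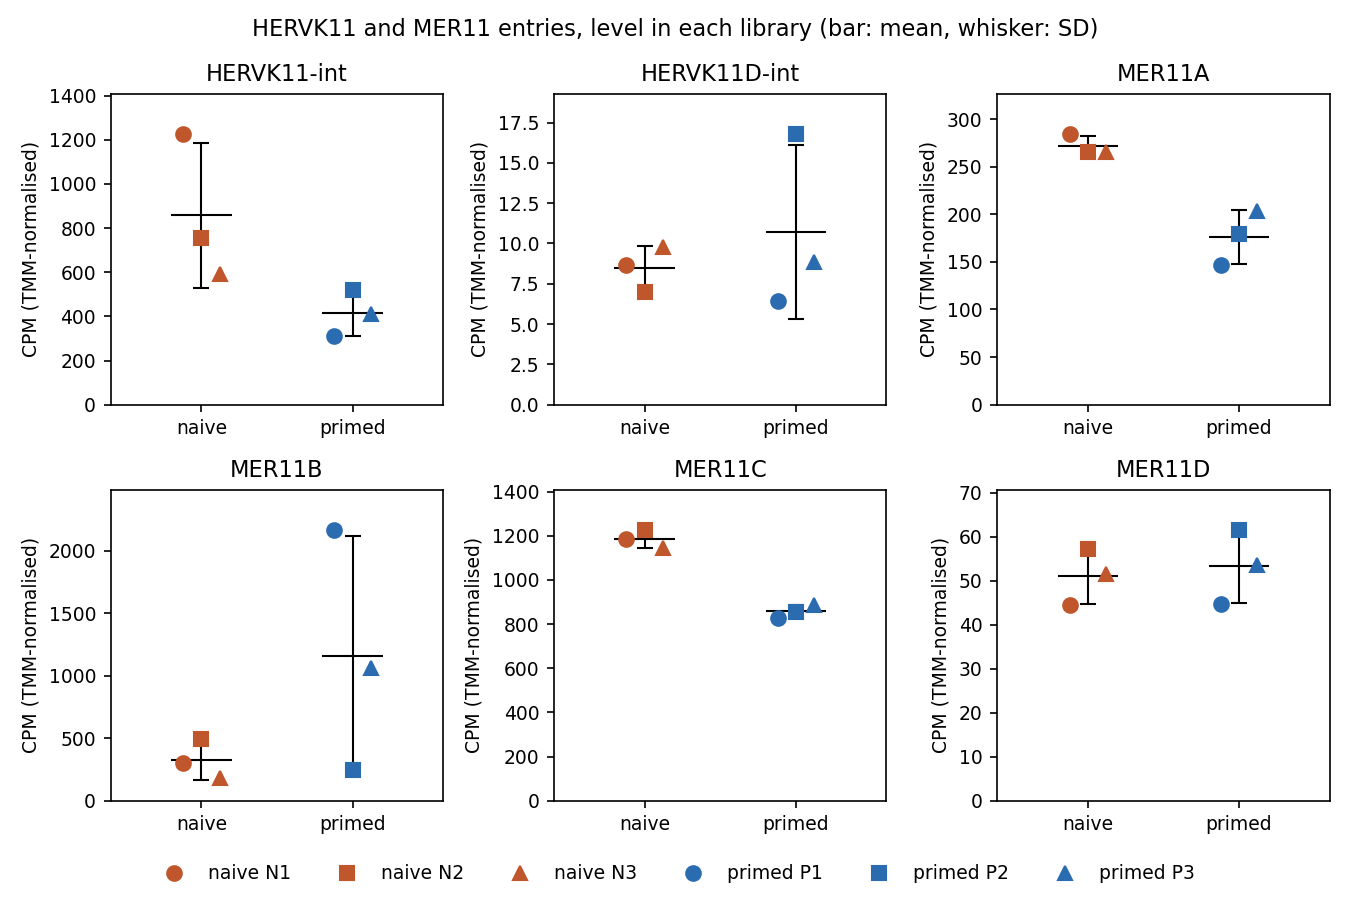
Level of each HERVK11 and MER11 entry in TMM-normalised CPM (vertical axes, each starting at 0) in the 3 naive libraries (left) and 3 primed libraries (right). Points are libraries, horizontal bars are group means and whiskers are 1 SD (n = 3). HERVK11-int, MER11A and MER11C do not overlap between groups, and MER11B is high in primed P1 and P3 only.

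HERVK11-int, the internal region, stood at 1226, 757 and 591 CPM in naive N1, N2 and N3, against 311, 520 and 409 CPM in primed P1, P2 and P3. Each naive library lay above each primed library, with naive N1 well above the other two. The means were 858 ± 329 CPM for naive and 414 ± 105 CPM for primed cells (SD, n = 3 each), a fitted 2.13-fold difference (log2 1.09 ± 0.26, SE). Among the 1265 named repeats tested it had rank 32 from the highest log2 change. The call was lost without primed P1 (log2 0.88) or primed P3 (1.07), and without naive N1 (0.77) or primed P2 (1.26) it was kept. Scaled by library total alone, the levels were 1106, 475 and 504 CPM in naive libraries and 342, 783 and 507 CPM in primed libraries, which overlap, and the log2 change was 0.40 and did not pass.

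MER11C, an LTR of the same group, was the steadiest of the 6 entries. It stood at 1185, 1226 and 1146 CPM in naive N1, N2 and N3, against 827, 856 and 888 CPM in primed P1, P2 and P3. Within each group the libraries lay close together, and the groups did not overlap. The same held, with naive higher, for 36.0% of the 1265 named repeats tested. MER11C had rank 262 from the highest log2 change among them. The means were 1186 ± 39.7 CPM for naive and 857 ± 30.3 CPM for primed cells (SD, n = 3 each), a 1.38-fold difference (log2 0.47 ± 0.11, SE). On the log2 scale the SD between libraries was 0.0483 in naive and 0.0510 in primed libraries. Its call was lost without naive N2 (log2 0.48) or primed P1 (0.42), and kept without primed P2 (0.48). By library total alone MER11C had 1069, 769 and 978 CPM in naive libraries and 909, 1288 and 1099.9 CPM in primed libraries, and its log2 change turned to -0.22.

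MER11A, another LTR of HERVK11, went in the same direction as MER11C. It stood at 284, 266 and 265 CPM in naive N1, N2 and N3, against 147, 179 and 203 CPM in primed P1, P2 and P3. The naive libraries were nearly equal and the primed ones were spread below them. MER11A had rank 147 from the highest log2 change among the 1265 named repeats tested. The means were 272 ± 10.8 CPM for naive and 176 ± 28.3 CPM for primed cells (SD, n = 3 each), a 1.55-fold difference (log2 0.63 ± 0.15, SE). The call was lost without primed P1 (log2 0.46) and kept without primed P2 (0.65). By library total alone the log2 change was -0.03, with 256, 167 and 226 CPM in naive libraries and 161, 269 and 251 CPM in primed libraries.

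MER11B, the remaining LTR of HERVK11, went the other way and was the most variable entry. It stood at 302, 491 and 179.8 CPM in naive N1, N2 and N3, against 2166, 246 and 1064 CPM in primed P1, P2 and P3. Primed P1 and P3 lay above every naive library, whereas primed P2, with 44 MER11B counts, lay inside the naive range. The means were 324 ± 157 CPM for naive and 1159 ± 963 CPM for primed cells (SD, n = 3 each), so that the naive level was 0.272 times the primed level in the fit (log2 -1.88 ± 0.55, SE). Among the 1265 named repeats tested it had rank 4 from the lowest log2 change. The call was lost without naive N3 (log2 -1.57), primed P1 (-1.12) or primed P3 (-1.96), and DESeq2, which gave -1.88, did not call it. Without primed P2 the log2 change was -2.30, and it was below 0 in all 16 alternative fits. By library total alone MER11B had 272, 308 and 153 CPM in naive libraries and 2380.5, 370.4 and 1318 CPM in primed libraries. On that scale the groups did not overlap, where the value of 370.4 rests on the 44 counts of primed P2. That scale lowers naive levels over the whole table, with 28 entries called higher and 1051 lower of 3219 tested. The share of all entries without overlap on it was not computed.

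The share of ribosomal RNA differed between the same libraries. The large and small subunit ribosomal entries held 6.07%, 5.58% and 0.162% of counts in naive N1, N2 and N3, against 17.7%, 4.03% and 8.0% in primed P1, P2 and P3. The pair of libraries with the most MER11B, primed P1 and P3, also had the highest ribosomal share, and naive N3 had the lowest of both. With alpha satellite and ribosomal entries left out of the fit, MER11B gave -1.94. The part of ribosomal RNA in the MER11B levels was not tested.

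MER11D and HERVK11D-int, the LTR and internal region of the HML-7 group, were nearly level. MER11D stood at 44.6, 57.3 and 51.7 CPM in naive N1, N2 and N3, against 44.8, 61.5 and 53.7 CPM in primed P1, P2 and P3. The groups overlapped throughout, with a log2 change of 0.02 ± 0.17 (SE). HERVK11D-int was rare, with 76, 78 and 139 counts in naive N1, N2 and N3, against 51, 3 and 89 in primed P1, P2 and P3. These counts equal 8.64, 6.99 and 9.76 CPM in naive libraries, and 6.45, 16.8 and 8.86 CPM in primed libraries. The highest level rests on the 3 counts of primed P2, and the log2 change was 0.06 ± 0.32 (SE). Neither entry passed the threshold in any of its 15 alternative fits, and both changed sign between them.

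**Figure D2:**
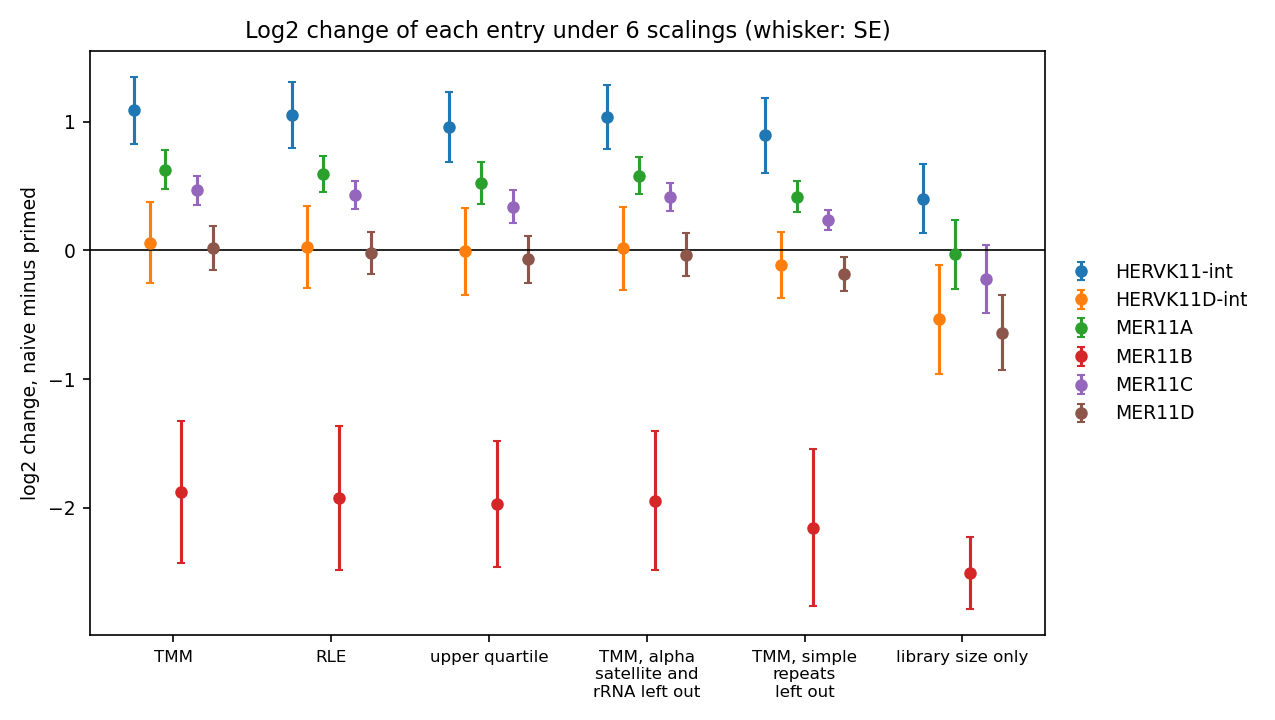
Log2 change (naive minus primed, vertical axis) of each entry under 6 scalings (horizontal axis). Points are fitted values and whiskers are 1 SE. With library size only, all 6 points lie lower than with TMM, and MER11A (-0.03) and MER11C (-0.22) fall below 0, while MER11B stays lowest in every scaling.

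A change of scaling moves all entries up or down by nearly the same amount. Their order is therefore bound to stay nearly the same and is no check of the values. From the highest to the lowest log2 change the order was HERVK11-int, MER11A, MER11C, HERVK11D-int, MER11D and MER11B in each of the 6 scalings compared. The neighbours HERVK11D-int and MER11D lay closer to each other than their standard errors. MER11A and MER11C were called with TMM factors and not with upper-quartile factors (log2 0.52 and 0.34). With simple repeats (tandem copies of a short unit) left out, 0 of the 6 were called, at 0.89 for HERVK11-int, 0.42 for MER11A, 0.24 for MER11C and -2.15 for MER11B. Simple repeats were 1954 of the 3219 tested entries, so they weigh heavily in the TMM factors. Under TMM their median log2 change was -0.34, against 0.21 over the named repeats. With library size alone MER11B was called, at -2.51, and no other entry was.

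The composition of the MER11 counts, which needs no scaling between libraries, separated 2 primed libraries from the other 4 libraries. MER11C made up 65.3%, 60.1% and 69.8% of all MER11 counts in naive N1, N2 and N3, against 26.0%, 63.8% and 40.2% in primed P1, P2 and P3. MER11B made up 16.6%, 24.1% and 10.9% in naive N1, N2 and N3, against 68.0%, 18.3% and 48.2% in primed P1, P2 and P3. The MER11B share was thus above the naive range, and the MER11C share below it, in primed P1 and P3, while primed P2 lay inside the naive range for both. Primed P2 had 240 MER11 counts, and its 95% Wilson interval was 14.0% to 23.7% for MER11B and 57.5% to 69.6% for MER11C. Those intervals take in the values of naive N1 for both entries and, like all intervals and limits here, account for counting error alone, because reads lacking molecular identifiers are not separate molecules.

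The group means were 17.2% ± 6.58 for naive and 44.8% ± 25.0 for primed cells for MER11B (SD, n = 3 each), a difference of -27.6 percentage points. For MER11C they were 65.1% ± 4.83 for naive and 43.3% ± 19.1 for primed cells (SD, n = 3 each), a difference of 21.7 points. MER11A held 15.7%, 13.0% and 16.1% in naive N1, N2 and N3, against 4.60%, 13.3% and 9.19% in primed P1, P2 and P3. MER11D held between 2.46% and 3.14% in naive libraries and between 1.41% and 4.58% in primed libraries. For each of the 4 LTR entries the groups overlapped, through primed P2. Without that library the mean differences were -40.9 points for MER11B and 32.0 points for MER11C, and without primed P1 they were -16.0 and 13.1 points.

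**Figure D3:**
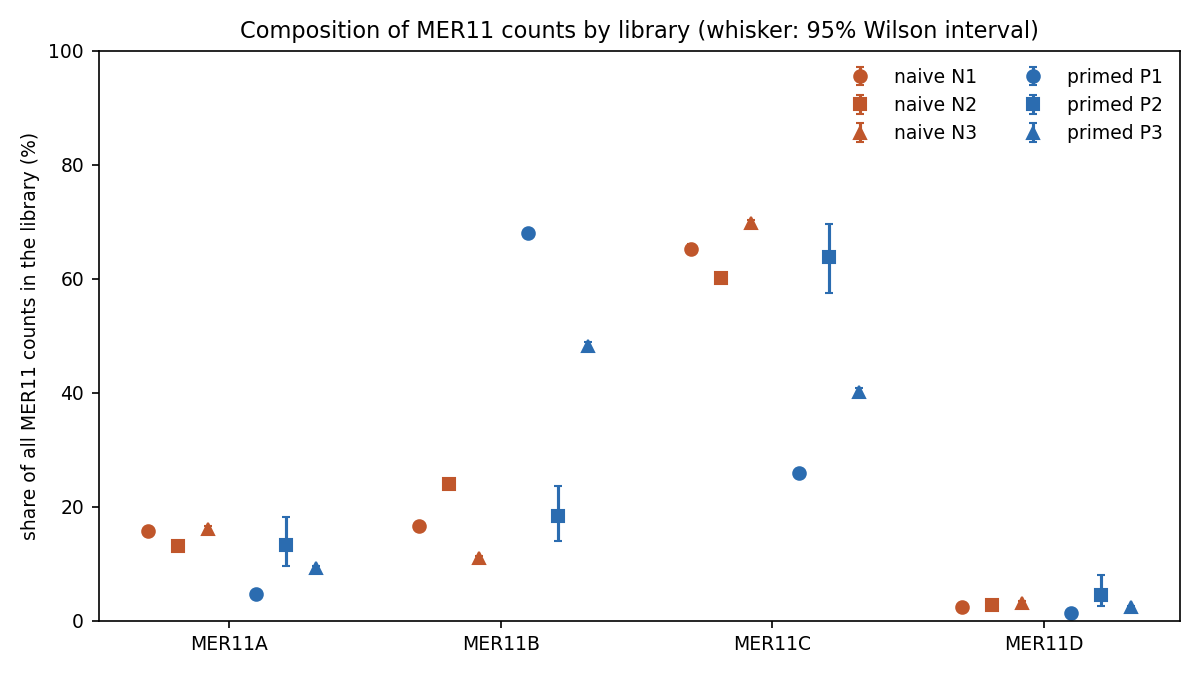
Share of all MER11 counts (percent, vertical axis) held by MER11A, MER11B, MER11C and MER11D (horizontal axis) in each library, naive left and primed right. Points are libraries and whiskers are 95% Wilson intervals, too short to see in the deep libraries. In primed P1 and P3 the MER11B share lies above its naive range and the MER11C share below its own, while primed P2 lies within the naive spread of both.

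With MER11B set aside, MER11C held much the same part of the other MER11 counts in both states, and MER11D held a smaller part in naive libraries. Of the summed counts of MER11A, MER11C and MER11D, a total chosen after the values had been seen, MER11C made up 78.3%, 79.2% and 78.3% in naive N1, N2 and N3, against 81.2%, 78.1% and 77.6% in primed P1, P2 and P3. MER11A made up 18.8%, 17.2% and 18.1% in naive libraries, and 14.4%, 16.3% and 17.7% in primed libraries, so that primed P1 was lowest. MER11D made up 2.94%, 3.70% and 3.53% in naive libraries, and 4.40%, 5.61% and 4.69% in primed libraries. Each naive value of MER11D lay below each primed one, although the 95% Wilson interval in primed P2, from 11 MER11D counts, was 3.16% to 9.77%.

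Set against MER11C alone, the MER11B ratio differed more between libraries than those of MER11A and MER11D. For every 100 counts of MER11C there were 25.5, 40.0 and 15.7 counts of MER11B in naive N1, N2 and N3, against 262, 28.8 and 119.8 in primed P1, P2 and P3. For MER11A the same ratio was 24.0, 21.7 and 23.1 in naive libraries, and 17.7, 20.9 and 22.9 in primed libraries. The MER11A ratio varied within a narrow range in which the groups overlapped. For MER11D it was 3.76, 4.67 and 4.51 in naive libraries, and 5.41, 7.19 and 6.04 in primed libraries, where the exact 95% interval in primed P2 was 3.51 to 13.2. Each naive value of the MER11D ratio lay below each primed one. This describes the same counts as the MER11D share above, whose total is mostly MER11C. The ratios to MER11C were not among the planned comparisons, and how many other repeats separate in this way was not computed.

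The balance of internal region to LTR was uneven in both states. For every 100 counts of MER11A, MER11B and MER11C there were 69.2, 38.2 and 37.1 counts of HERVK11-int in naive N1, N2 and N3, against 9.91, 40.6 and 19.0 in primed P1, P2 and P3. Naive N1 was highest and primed P1 lowest, and primed P2 (exact 95% interval 31.6 to 51.9) lay beside naive N2 and N3. With MER11B left out, the ratio was 83.4, 50.7 and 41.9 in naive libraries, and 31.9, 50.3 and 37.5 in primed libraries. The means then were 58.7 ± 21.9 for naive and 39.9 ± 9.40 for primed cells (SD, n = 3 each), and the groups overlapped. For HML-7 there were 19.4, 12.2 and 18.9 counts of HERVK11D-int per 100 counts of MER11D in naive libraries, and 14.4, 27.3 and 16.5 in primed libraries. The value of 27.3 has an exact 95% interval of 4.89 to 103, since it rests on 3 and 11 counts.

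As a whole, the 6 entries held 0.275%, 0.176% and 0.191% of all counts in naive N1, N2 and N3, against 0.385%, 0.283% and 0.325% in primed P1, P2 and P3. Outside alpha satellite and ribosomal entries they held 0.401%, 0.341% and 0.293% in naive libraries, and 0.469%, 0.297% and 0.355% in primed libraries. On all counts each naive library lay below each primed one. The closest values were 0.275% in naive N1 and 0.283% in primed P2. The Wilson interval of primed P2, from 336 counts, was 0.254% to 0.315% and takes in the naive N1 value. Scaling by all counts lowers naive levels over the whole table, with 28 entries called higher and 1051 lower of 3219 tested. The share of all entries without overlap on that scale was not computed. On the second total the groups overlapped, at means of 0.345% ± 0.0541 for naive and 0.374% ± 0.0877 for primed cells (SD, n = 3 each).

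The other groups of the HERV-K (ERVK) class give the setting for these values. Of 8 other internal regions, 2 rose, 0 fell and 6 missed the threshold, and their median log2 change was 0.24. Over the 1265 named repeats tested, 10.4% were called higher and 1.19% lower, and the median was 0.21. HERVK-int, the HML-2 internal region, gave 3.62 ± 0.30 (SE), and HERVK22-int, the internal region of HML-5, gave 0.70 ± 0.18. Values for the internal regions that did not pass were 0.59 for HERVK14C-int, 0.29 for HERVK9-int, 0.18 for HERVKC4-int, 0.18 for HERVK3-int, -0.10 for HERVK14-int and -0.14 for HERVK13-int. HERVK11-int, at 1.09, lay between HERVK-int and HERVK22-int. The HERVK22-int call was lost without naive N2 (log2 0.69) or primed P1 (0.67), with library size alone (0.0922), with simple repeats left out (0.46) and with thinning to the shallowest library (0.46), and that of HERVK-int was kept without any 1 library.

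Among 28 other LTR entries of the class, 1 rose, LTR5_Hs of HML-2, 0 fell and 27 missed the threshold. Their median was 0.24, beside 0.21 over the named repeats, of which 10.4% were called higher and 1.19% lower. LTR5_Hs gave 1.59 ± 0.21 (SE), and the other LTRs reached down to -0.55 for LTR22C0. MER11A and MER11C lay inside that range and MER11B, at -1.88, below it. Whether MER11B differs from these LTRs was not tested.

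The entries also differed in which repeats followed the same course over the libraries. Likeness was measured as Pearson's r of log2 CPM over the 6 libraries against 1087 other named repeats, the other members and all with a mean of at least 10 CPM, and is a description. The 6 libraries form 2 groups of 3 and all repeats share their depth and scaling, so many repeats reach a high r. MER11A and MER11C had r = 0.95 with each other, which put MER11A at rank 50 of 1087 for MER11C. HERVK11-int had 0.86 with MER11A and 0.83 with MER11C, which put it at ranks 202 and 291 for these LTRs. In the order for HERVK11-int, MER11A and MER11C had ranks 49 and 75. MER11B had negative r with all 5 other entries, from -0.66 with MER11A to -0.37 with MER11D. HERVK11D-int and MER11D had r = 0.62 with each other, which put MER11D at rank 116 for HERVK11D-int and HERVK11D-int at rank 124 for MER11D.

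The 3 repeats most like MER11B were L1MA2, a LINE-1 family (r = 0.99), MER57E3, a retroviral LTR (0.97), and AluSx, an Alu family (0.95). L1MA2 stood at 3735, 4827 and 2984 CPM in naive N1, N2 and N3, against 9493, 3032 and 5798 CPM in primed P1, P2 and P3. As with MER11B, primed P1 and P3 were the highest and primed P2 lay inside the naive range. The log2 changes of these 3 repeats were smaller than that of MER11B, at -0.67 for L1MA2, -0.40 for MER57E3 and -0.33 for AluSx. The closest to HERVK11-int were MER57A-int (r = 0.96), Charlie1a (0.96) and hAT-1_Mam (0.95), with log2 changes of 0.28, 0.13 and 0.21.

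**Figure D4:**
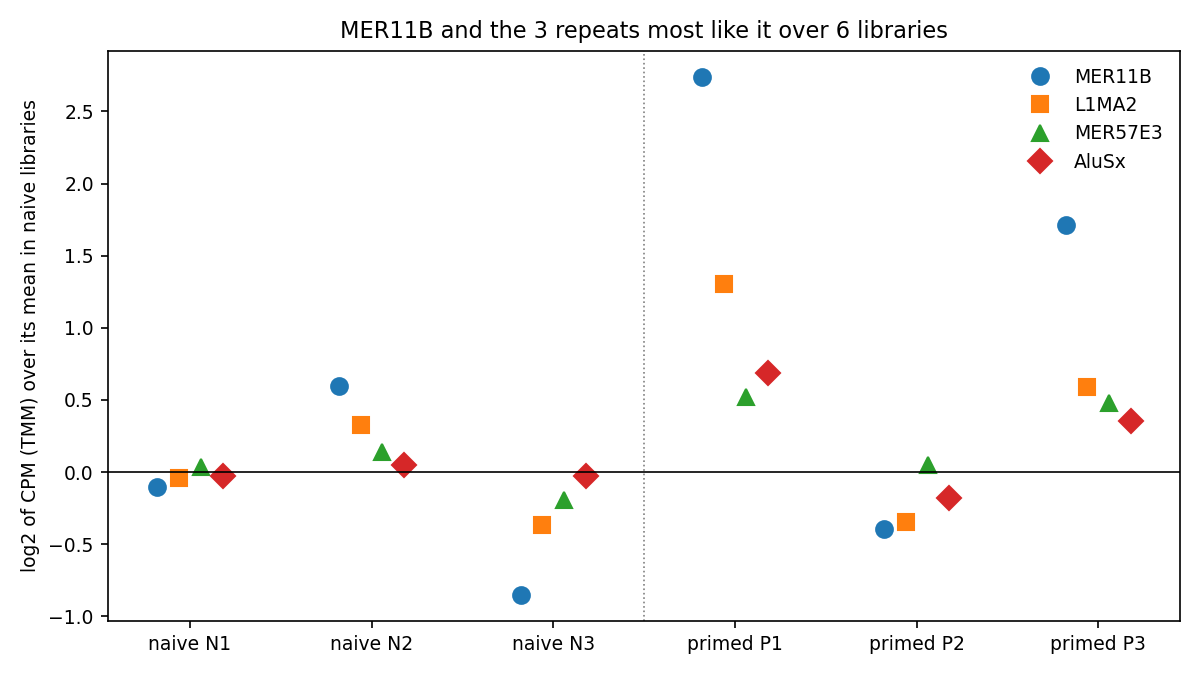
Log2 of the TMM-normalised CPM of MER11B, L1MA2, MER57E3 and AluSx over the mean of each in naive libraries (vertical axis), for the 6 libraries (horizontal axis, naive left of the dotted line). Points are single libraries. All 4 are above their naive mean in primed P1 and P3, and MER11B, L1MA2 and AluSx are below it in primed P2.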

How the data were processed

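The deposited values are raw counts per repeat name and library, not normalised as far as the values show. Reads were handled with Trimmomatic 0.39, STAR 2.7.8a, featureCounts and Subread 2.14.2, per the submitters' processing notes, of which the list used here gives no roles. For genome build, repeat annotation, strand setting and multi-mapping reads the sources used here give no setting, so reads of near-identical MER11 copies can be split between entries.

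The treatment label set the groups, and titles matched columns to samples. The whole table was fitted with R 4.3.3 and edgeR 4.0.16 (filterByExpr, TMM factors, quasi-likelihood F-test for naive minus primed, threshold 0.05 after Benjamini-Hochberg adjustment), tested on simulated counts. The SE is the log2 change divided by the square root of F. Of 15641 entries, 3219 were tested. Shares carry 95% Wilson intervals and ratios exact intervals (scipy 1.17.1). Alternatives were DESeq2 1.42.0, other scalings and filters, entries left out, thinning, a replicate block and each library left out. Since separate cultures are not stated, adjusted p-values reflect the spread of these libraries alone, possibly a technical one. The members and lists were chosen with earlier results of these data known. All 6 members and 8 other ERVK internal regions are named. Other repeats are named by the largest called change, or by the 3 highest r for a member, where log2 CPM has a prior count of 2. LTR22C0 was named after its value was seen. Figures used matplotlib 3.10.9 in Python 3.11.15.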

Additional observations from a re-analysis of the deposited data

How the results depend on the processing

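The counts of 3 entries higher and 1 lower were kept with RLE factors, no filter, a CPM of at least 1 in 3 libraries, and alpha satellite and ribosomal entries left out. The count of higher entries was 1 with upper-quartile factors and 0 with library size only, and the count of lower entries was 0 with DESeq2. With simple repeats left out, or with all libraries thinned to the shallowest, 0 were called higher and 0 lower. After thinning the log2 changes were 0.67 for HERVK11-int, 0.14 for MER11A, 0.21 for MER11C and -2.02 for MER11B. Leaving out 1 library gave 0 to 3 higher and 0 to 1 lower. MER11D changed sign with RLE factors (log2 -0.0184), upper-quartile factors (-0.0699), library size only (-0.64), DESeq2 (-0.0064), simple repeats left out (-0.18), alpha satellite and ribosomal entries left out (-0.0315) and the replicate block (-0.0419). HERVK11D-int did so with upper-quartile factors (-0.0069), library size only (-0.54), DESeq2 (-0.0098) and simple repeats left out (-0.11). Without 1 library they ranged from -0.12 to 0.13 and from -0.18 to 0.21. Library size only also reversed MER11A (-0.0295) and MER11C (-0.22), with 28 entries higher and 1051 lower over the table, against 159 and 250 with TMM (median log2 change of all entries -0.61, against -0.0046). Over the table the counts were 141 and 260 of 3219 tested with RLE factors, and 104 and 343 of 3219 with upper-quartile factors. They were 94 and 114 of 10175 fitted with DESeq2, and 264 and 596 of 10175 with no filter. A CPM of at least 1 in 3 libraries gave 157 and 265 of 3345. Leaving out alpha satellite and ribosomal entries gave 142 and 297 of 3362. Leaving out simple repeats gave 31 and 17 of 1265, and thinning 2 and 0 of 707. Without 1 library they were 8 to 238 and 7 to 413, with 3432 to 3724 tested.

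Among other ERVK internal regions, 1 was higher and 2 lower with library size only, 1 higher with simple repeats left out or thinning, and 1 to 2 higher without 1 library. Among other ERVK LTRs, 7 were lower with library size only and 0 higher with thinning. The MER11C share difference became -0.36 points with MER11B left out of the total. The HERVK11D-int ratio difference was -2.57 counts per 100 MER11D counts and became -12.9 with thinning. The family share difference of -0.117 points became -0.0287 outside alpha satellite and ribosomal entries. MER11D and HERVK11D-int had too few counts to be fitted after thinning.

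With the replicate number as a block, 3 of the 6 entries were higher and 1 lower, and 2 other ERVK LTRs were higher and 1 lower. Over the table, 264 entries were higher and 374 lower of 3219 tested. The block changed the SE from 0.55 to 0.17 for MER11B and from 0.26 to 0.15 for HERVK11-int, and raised it somewhat for the other members. Deviations of same-numbered libraries correlated at 0.15, 0.0867 and 0.0659, and those of differently numbered ones at -0.107 to -0.0033. Each library thus correlated best with its own number. The same-number values were not all above 0.1, and the main fit took no pairs. Whether the numbers mark pairs is not settled by these values. Primed P2, with 118793 counts, limits every value that rests on it.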

Other observations

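The repeats most like the remaining entries over the 6 libraries were as follows, by Pearson's r of log2 CPM and with no test. For MER11A they were Charlie23a (r = 0.996), a DNA transposon, LTR80A (0.994) and L1M8 (0.992), with log2 changes of 0.29, 0.72 and 0.35. For MER11C they were HUERS-P3-int (0.991), a retroviral internal region, LTR91 (0.988) and alpha satellite (0.986), with log2 changes of 0.70, 0.68 and 7.32. Alpha satellite shared with MER11C the direction of the difference between the groups, and not its size. Within the naive libraries alpha satellite was lowest in N1 and MER11C in N3. Within the primed libraries alpha satellite was highest in P2 and MER11C in P3. For MER11D they were THE1-int (0.970), PRIMA4_LTR (0.958) and LTR86A1 (0.940), all with log2 changes between -0.05 and 0.12. For HERVK11D-int they were UCON76 (0.977), Tigger5 (0.964) and UCON55 (0.958), each with at most 17 counts in primed P2. Counts there were also low for LTR80A (4), LTR91 (11), THE1-int (11), PRIMA4_LTR (9) and LTR86A1 (12), which limits their r.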
